A study of Mus musculus with 4 samples.

Results

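The cardiac myosin heavy and light chains were followed across the cell classes of day 9 mouse embryoid bodies, which are aggregates of differentiating embryonic stem cells (mESC). The 6 genes were Myh6, Myh7, Myl2, Myl3, Myl4 and Myl7. They were taken by name from the 20284 genes of the expression table, and all 6 were present in it. Embryoid bodies derived from control mESC gave 2 libraries and those derived from DUX-pulsed mESC gave 2, which the series design calls biological replicates. No other genotype, strain or treatment of the control cells, and neither the length nor the driver of the DUX pulse, was given in the sources used here. DUX is a transcription factor of the cleavage-stage mouse embryo. Each value is a count of unique molecular identifiers (UMIs) from 10x Genomics droplet libraries. Cells from 1 library are not replicates, so the groups were compared over the 4 libraries.

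Cardiac muscle shortens when the heads of myosin, a motor of the thick filament, pull on actin. A cardiac myosin holds a pair of heavy chains, and each heavy chain carries 1 regulatory and 1 essential light chain. Myh6 encodes the fast alpha heavy chain and Myh7 the slow beta heavy chain, which in the mouse dominates the ventricle before birth and gives way to Myh6 afterwards. Among the regulatory light chains Myl2 belongs to the ventricle and Myl7 to the atrium. Among the essential light chains Myl3 belongs to the ventricle and to slow skeletal muscle. Myl4 belongs to the atrium, and is also made in the embryonic ventricle. Early heart tubes express atrial and ventricular isoforms together.

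In the GENCODE vM21 annotation of the mm10 genome, Myh6 (ENSMUSG00000040752.16) lies at chr14:54941921-54966927 and Myh7 (ENSMUSG00000053093.16) at chr14:54970684-54994626. Both are on the minus strand, and 3756 bases separate them. Myl2 (ENSMUSG00000013936.12) lies at chr5:122100951-122113472 on the plus strand, where it overlaps Ccdc63 on the other strand. Myl3 (ENSMUSG00000059741.13) lies at chr9:110741861-110769798 on the plus strand, where it overlaps Pth1r on the other strand. Myl4 (ENSMUSG00000061086.12) lies at chr11:104550663-104595753 on the plus strand and Myl7 (ENSMUSG00000020469.8) at chr11:5896637-5898782 on the minus strand. The principal transcripts hold 39 exons for Myh6, 41 for Myh7, 7 each for Myl2, Myl3 and Myl7, and 9 for Myl4. The heavy chains are alike enough to share reads. Of all stretches of 98 bases in the Myh6 transcript, 11.7% also occur in that of Myh7, and 24.1% of those in its last 500 bases. The light chains shared no such stretch with each other or with the heavy chains. Values of Myh6 and Myh7 are therefore less certain than those of the light chains. How reads of Myh7 and of Mhrt, an antisense RNA over it, were assigned to a strand was not given in the sources used here.

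Promoter stretches of 2 genes are printed because Myl3 gave the clearest difference within the cardiac cells and Myl7 marked the cardiac class in every library. They are RefSeq sequences of the build GRCm38.p6, from 250 to 36 bases before the start site, 5′ to 3′ on the gene's strand. Capitals mark the CArG box (a site of serum response factor), the M-CAT element (CATTCC or its reverse complement, a site of TEAD factors) and GATAA (a site of GATA factors). The Myl3 stretch is chr9:110763428-110763642 on the plus strand and the Myl7 stretch chr11:5898818-5899032 on the minus strand.
Myl3: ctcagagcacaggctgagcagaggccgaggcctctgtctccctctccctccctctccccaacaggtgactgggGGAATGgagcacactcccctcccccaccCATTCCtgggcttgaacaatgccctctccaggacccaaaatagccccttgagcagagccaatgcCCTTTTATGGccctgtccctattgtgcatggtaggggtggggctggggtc
Myl7: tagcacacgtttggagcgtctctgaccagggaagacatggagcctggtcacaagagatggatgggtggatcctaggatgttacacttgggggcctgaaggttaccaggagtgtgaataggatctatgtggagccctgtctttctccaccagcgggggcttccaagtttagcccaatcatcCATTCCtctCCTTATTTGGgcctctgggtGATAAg
On both strands of the 250 bases before the start, a CArG box occurred in 1.47% of 32851 RefSeq promoters. The M-CAT letters occurred in 12.6% and GATAA in 22.6%. The CArG box of Myl3 lay 85 to 76 bases before its start and that of Myl7 61 to 52 bases before. The 250 bases before the RefSeq starts of Myh6, Myh7, Myl2 and Myl4 held no CArG box. The RefSeq starts of Myl2 lay 8227 and 7762 bases from the start of its principal transcript. These matches describe letters and not binding.

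After filtering, the libraries held 2824 and 2636 control cells and 2063 and 1353 DUX-pulsed cells, with a median of 27260 to 30402.5 UMIs per cell. Any pair of libraries shared 0 to 2 cell barcodes. Cells were clustered with the 6 myosin genes left out. Of 20 clusters, clusters 1 and 2 formed the cardiomyocyte-like class, named from 21 marker genes that held no myosin: 19 of these were raised in each of the clusters. The class held 935 of 8876 cells. Its share of the cells was 5.03% and 3.87% in the control libraries against 19.9% and 20.8% in the DUX-pulsed ones, and its median depth per library was 21970 to 26907 UMIs. Of 8 skeletal muscle markers, 3 (Myog, Myh3 and Chrna1) were at 0 in it. Smooth muscle markers moved with the group: the 9 together stood at 11150 and 11110 CPM (counts per 1000000 UMIs of the sum) in the class of the control libraries and at 4091 and 3218 CPM in that of the DUX-pulsed libraries. Of the 7 that could be tested there, 6 were lower in DUX-pulsed cells. The 8 skeletal muscle markers summed to 59.61 and 44.14 CPM in the controls against 90.02 and 49.92 CPM, where the groups overlapped (1 of 2 tested higher, Tnni2). Pluripotency and epiblast markers summed to 1010 and 951 CPM against 192 and 134 CPM (1 of 2 tested lower, Tdgf1). Mesenchyme and fibroblast markers summed to 431 and 642 CPM against 189 and 270 CPM (4 of 10 tested lower, 1 higher), and erythroid markers to 8.33 and 14.1 CPM against 71.2 and 31.7 CPM (3 of 5 tested higher). The part of all these markers in the differences reported for the myosin genes was not tested.

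The 6 genes were concentrated in the cardiomyocyte-like class. Together they supplied 2.90% and 2.44% of its UMIs in the control libraries and 3.24% and 2.77% in the DUX-pulsed libraries. Outside the class they supplied 0.00816% and 0.00826% in the controls against 0.0156% and 0.0112% in the DUX-pulsed libraries. Per gene and library, between 81.6% (Myh6, control replicate 2) and 99.3% (Myl2, DUX-pulsed replicate 2) of all UMIs lay in class cells. Myl2 was the most restricted in the control libraries, with 99.1% and 98.3% of its UMIs there. The share of the 6 genes in a single cell had a median of 2.51% to 3.22% across libraries, and 10% of class cells lay below 1.04% to 1.93%.

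Some classes outside the cardiac one carried single members above the rest, as the plot of levels by cell class shows. Mesenchyme- and fibroblast-like cells held the atrial light chains: Myl4 stood at 75.8 and 102 CPM in the control libraries and 66.0 and 38.9 CPM in the DUX-pulsed ones. Myl7 there stood at 119 and 130 CPM against 62.5 and 48.2 CPM. Myl3 reached only 6.14 CPM in those cells, which pooled over libraries gave 6.002 UMIs of Myl3 per 100 of Myl7, against 41.0 in the cardiac class.

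Myl3 showed the opposite pattern in cluster 3, an unnamed cluster led by Fst, Lama1 and Gkn2 whose closest marker list was that of parietal endoderm. It stood there at 145 CPM in control replicate 1, 176 CPM in DUX-pulsed replicate 1 and 150 CPM in DUX-pulsed replicate 2, with 1440 UMIs of Myl3 per 100 of Myl7 over the cluster. The other 5 members stayed at or below 22.3 CPM in these 3 libraries. Trophoblast-like cells held Myl4 at 135 CPM in DUX-pulsed replicate 1 (40 cells) and 56.5 CPM in replicate 2 (16 cells), with Myl7 at 10.2 and 21.9 CPM. Cluster 5, led by the gut peptide genes Ghrl and Pyy, held Myh7 at 88.4 and 88.5 CPM in the DUX-pulsed libraries, with Myh6 at 6.53 and 5.05 CPM. In control replicate 1 (22 cells) both heavy chains stood at 35.1 CPM there. Cluster 4, led by the secreted-protein genes Itih2, Ambp and Fgg, gave Myl2 at 20.2 CPM in DUX-pulsed replicate 1, where 153 UMIs lay in 13 of 177 cells (7.34%, or 1.69% after thinning each cell to 5000 UMIs). Most cells of the cluster thus had no Myl2 UMI. The level was 1.11 CPM in DUX-pulsed replicate 2 (97 cells), and no Myl2 UMI was seen in the control libraries (31 and 36 cells). Myh7 in that cluster stood at 75.7 and 45.0 CPM in the DUX-pulsed libraries against 8.88 and 10.4 CPM in the controls.

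Endothelium-like, erythroid-like and myeloid-like cells had low values of all 6 genes. In libraries with at least 20 such cells, no member passed 18.7 CPM, the level of Myl7 in erythroid-like cells of DUX-pulsed replicate 2. In the unnamed clusters 14, 16 and 17, which were made of control cells for the most part, Myh7 lay between 32.7 and 51.7 CPM and Myl7 between 36.6 and 55.4 CPM in the control libraries. Myl4 in those clusters lay between 2.74 and 11.3 CPM, or 11.4 to 13.5 UMIs per 100 of Myl7, against 62.1 in the cardiac class.

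**Figure D1:**
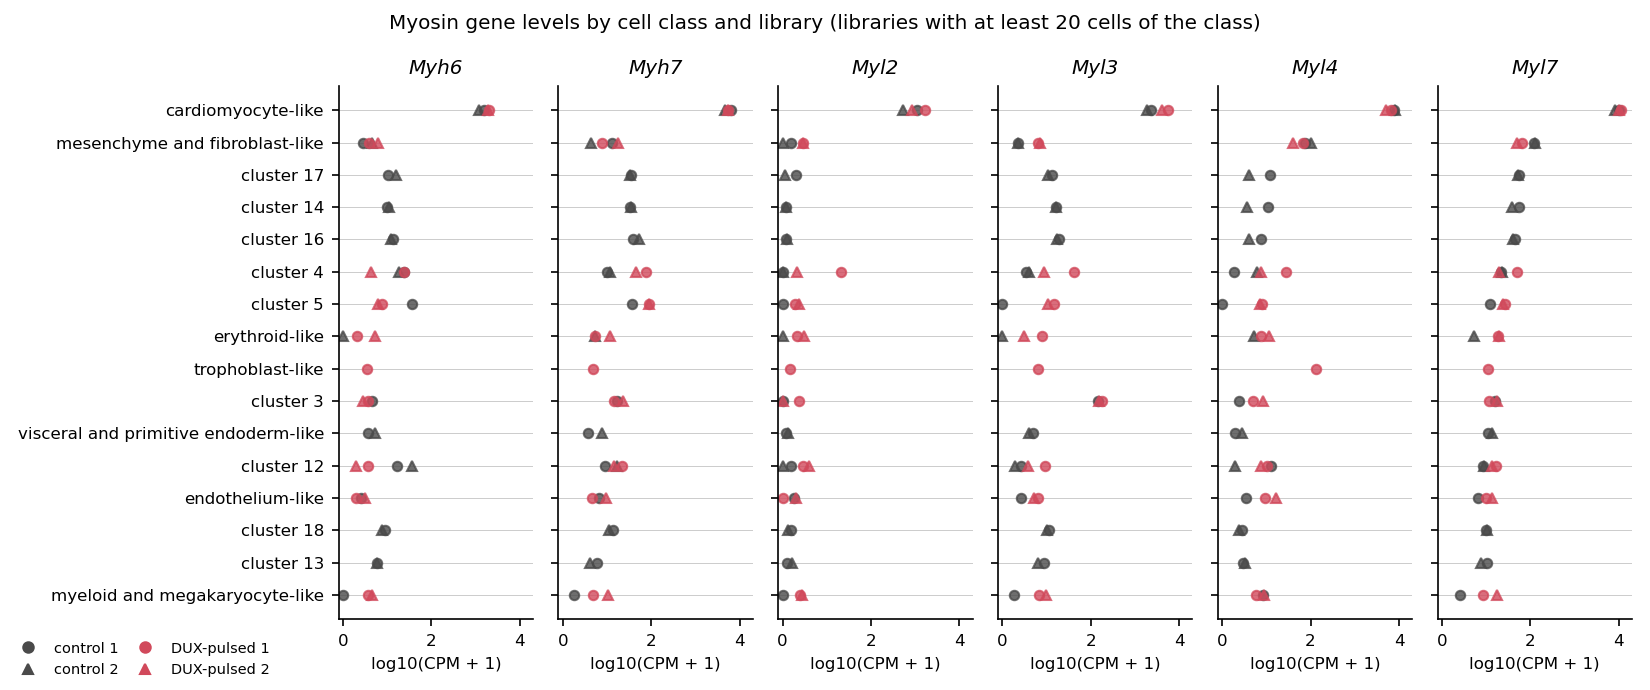
Level of each myosin gene by cell class and library, as log10 of CPM plus 1. Rows are classes or unnamed clusters, without the low-depth clusters. Points are libraries with at least 20 cells of the row (grey control, red DUX-pulsed, circles replicate 1, triangles replicate 2). All 6 genes peak in the cardiomyocyte-like row, Myl3 stands out in cluster 3, Myl4 in trophoblast-like cells, and Myl4 and Myl7 in mesenchyme- and fibroblast-like cells.

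Summed over all cells of a library, every one of the 6 genes was higher in DUX-pulsed embryoid bodies. Such sums cannot tell more cardiac cells from more RNA per cardiac cell, and the class itself was larger in those libraries. All 6 passed edgeR's quasi-likelihood test at an adjusted p under 0.05, where 15.6% of 16140 genes tested were called higher. The groups did not overlap for any of the 6, which held for 67.6% of all genes.

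Among the heavy chains, Myh6 stood at 57.2 and 44.6 CPM in the controls against 327 and 398 CPM in the DUX-pulsed libraries. Its log2 fold change was 2.83 (SE 0.20, edgeR adjusted p = 0.00221). Myh7 stood at 224 and 163 CPM against 891 and 1194 CPM, a log2 fold change of 2.43 (SE 0.24, edgeR adjusted p = 0.00272). For both genes the lower DUX-pulsed library was several times the higher control library.

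Of the regulatory light chains, Myl2 stood at 36.6 and 16.3 CPM in the controls against 267 and 183 CPM, a log2 fold change of 3.09 (SE 0.42, edgeR adjusted p = 0.00551). Myl7 stood at 360 and 279 CPM against 1772 and 2192 CPM, a log2 fold change of 2.63 (SE 0.21, edgeR adjusted p = 0.00246). The ventricular member thus had the wider relative spread between control libraries.

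Of the essential light chains, Myl3 stood at 90.6 and 65.9 CPM in the controls against 938 and 856 CPM, a log2 fold change of 3.52 (SE 0.22, edgeR adjusted p = 0.00196). Myl4 stood at 266.0 and 250.1 CPM against 1071 and 1090 CPM, a log2 fold change of 2.07 (SE 0.15, edgeR adjusted p = 0.00221). These were the highest and the lowest estimates among the 6 genes.

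The size of these differences depended on the filter for cells. The median mitochondrial share was 6.22% and 6.42% in the control libraries against 4.01% and 4.54% in the DUX-pulsed ones. A stricter filter (1000 or more genes detected, mitochondrial counts of 5% or less) therefore acted unequally. It left 644 of 2824 and 523 of 2636 control cells, against 1320 of 2063 and 694 of 1353 DUX-pulsed cells. With this filter the class made up 11.2% and 9.56% of the cells left in the control libraries, against 18.4% and 20.03% in the DUX-pulsed ones. The calls of Myl2 (log2 fold change 1.04, edgeR adjusted p = 0.150) and Myl4 (0.47, edgeR adjusted p = 0.131) were then lost, and those of the other 4 genes were kept at smaller estimates: Myl3 1.999, Myh6 1.32, Myl7 1.21 and Myh7 0.82 (edgeR adjusted p up to 0.0381).

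Within the cardiomyocyte-like class, only Myl3 passed the same test between the groups. It stood at 2352 and 1718 CPM in the control libraries, a mean of 2035 ± 448 (SD, n = 2), and at 6054 and 4028 CPM in the DUX-pulsed libraries, a mean of 5041 ± 1433 (SD, n = 2). Both DUX-pulsed values lay above both control values. The log2 fold change was 1.31 (SE 0.25, 95% interval 0.83 to 1.79, edgeR adjusted p = 0.00244), a fold of 2.48. Each 95% interval of a log2 fold change given here was set from the SE by a normal approximation. With so few libraries such intervals are too narrow, and the calls rest on the edgeR test alone. The call held in each of 14 alternative settings, with estimates between 1.01 and 1.59 and adjusted p values up to 0.0229. In this comparison 8.57% of 11305 genes were called higher and 7.59% lower, 969 and 858 genes. Without the TMM scaling the median of all genes moved by -0.11 on the log2 scale and the split became 784 higher and 1170 lower.

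Myh6 in the class stood at 1524 and 1110 CPM in the controls against 2190 and 1883 CPM in the DUX-pulsed libraries. The groups did not overlap, and the log2 fold change of 0.63 (SE 0.22, 95% interval 0.20 to 1.06) missed the threshold (edgeR adjusted p = 0.0628). It passed without control replicate 1 (0.89, edgeR adjusted p = 0.0102) and was 0.41 without control replicate 2 (edgeR adjusted p = 0.387). Myh7 stood at 6327 and 4283 CPM against 5879 and 5558 CPM. The DUX-pulsed values lay within the range of the controls (log2 fold change 0.11, 95% interval -0.34 to 0.55, edgeR adjusted p = 0.795).

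Myl2 stood at 1109 and 488 CPM in the class of the controls and at 1795 and 867 CPM in that of the DUX-pulsed libraries. The groups overlapped, and in each of them replicate 1 stood higher than replicate 2. The log2 fold change was 0.74 (SE 0.35, approximate 95% interval 0.05 to 1.42, edgeR adjusted p = 0.176). The unadjusted edgeR p was 0.0530, so this interval is narrower than the test allows. It passed the threshold without control replicate 1 (1.46, edgeR adjusted p = 1.88e-05) and without DUX-pulsed replicate 2 (1.19, edgeR adjusted p = 0.0029). It shrank to 0.25 without control replicate 2 (edgeR adjusted p = 0.655) and to 0.14 without DUX-pulsed replicate 1 (edgeR adjusted p = 0.817), so the estimate rests on which libraries are used.

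The atrial light chains did not pass the test in the class. Myl7 stood at 10040 and 7631 CPM in the controls against 11890 and 10350 CPM, with no overlap (log2 fold change 0.33, 95% interval -0.10 to 0.76, edgeR adjusted p = 0.350). Myl4 stood at 7836 and 7427 CPM against 7123 and 5128 CPM, also with no overlap and with a negative estimate (-0.32, 95% interval -0.75 to 0.12, edgeR adjusted p = 0.374). Groups did not overlap for 4 of the 6 members in the class, where 57.9% of all genes tested had that property.

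**Figure D2:**
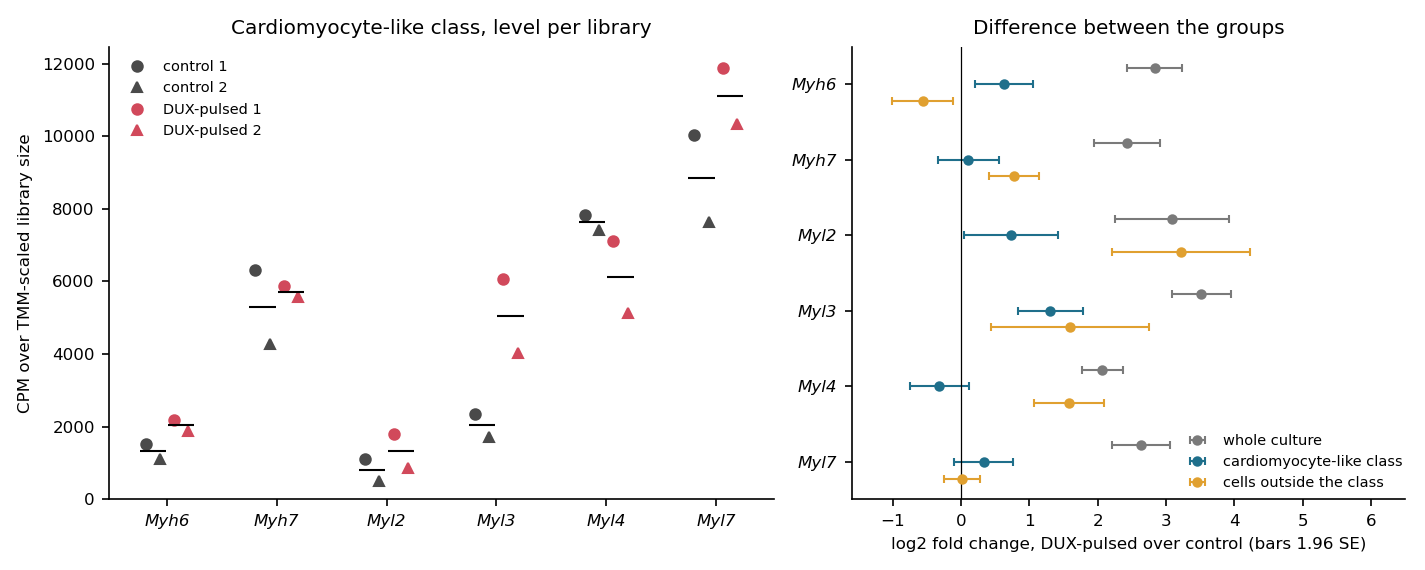
Left, CPM of each gene in the cardiomyocyte-like class, one point per library with the group mean as a line. Right, log2 fold change of DUX-pulsed over control with its approximate 95% interval in the whole culture, in the class and in all other cells. The whole-culture estimates run from 2.07 to 3.52, and in the class only Myl3, at 1.31, passed the test.

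The class was not made of the same cells in the 2 groups. At a finer clustering (Leiden resolution 2), fine cluster 14, led within the class by Myh11, Shox2 and Tagln, held 70.4% and 78.4% of the control class cells and 7.32% and 3.20% of the DUX-pulsed class cells. Fine cluster 1, led by Espn, Gipr and Ryr2, held 11.3% and 2.94% of the control class cells and 61.5% and 67.3% of the DUX-pulsed ones. Fine cluster 2, led by the mitotic genes Cenpf, Top2a and Hmmr, held 10.6% and 8.82% against 27.1% and 20.6%. Shox2 is a factor of the sinoatrial node and venous pole, Myh11 is the smooth muscle heavy chain, and Ryr2 is the calcium release channel of heart muscle.

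Myl3 was set side by side within these clusters, by the CPM of each library. In fine cluster 14 it stood at 2366 and 1949 CPM in the controls (100 and 80 cells) and at 3296 and 2941 CPM in the DUX-pulsed libraries (30 and 9 cells). In fine cluster 1 it stood at 3566 and 3236 CPM in the controls (16 and 3 cells) and at 5847 and 4025 CPM in the DUX-pulsed libraries (252 and 189 cells). The 16 cells of control replicate 1 were shallow, with a median of 2003 UMIs against 20401 and 26002 in the DUX-pulsed cells of that cluster. In fine cluster 2 Myl3 stood at 1799 and 1099 CPM in the controls (15 and 9 cells) against 5744 and 4096 CPM (111 and 58 cells). Both DUX-pulsed values were above both control values in each of these clusters. The gap between control and DUX-pulsed values was narrower in fine cluster 14 than over the class.

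Too few cells of 1 group lay in each fine cluster for a test. At the main resolution, cluster 1 had at least 90 cells in every library and was tested alone. Myl3 was again the only member called there (log2 fold change 1.25, SE 0.23, edgeR adjusted p = 0.00121), where 8.18% of 10796 genes were called higher. The other 5 members ranged from -0.26 (Myl4, edgeR adjusted p = 0.478) to 0.61 (Myl2, edgeR adjusted p = 0.203). Myh6 gave 0.59 with an edgeR adjusted p of 0.0713. Without control replicate 1, Myh6 (0.84, edgeR adjusted p = 0.0146), Myl2 (1.23, edgeR adjusted p = 0.000334) and Myl7 (0.61, edgeR adjusted p = 0.0414) also passed. Without DUX-pulsed replicate 1 the Myl2 estimate was 0.036 (edgeR adjusted p = 0.958).

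**Figure D3:**
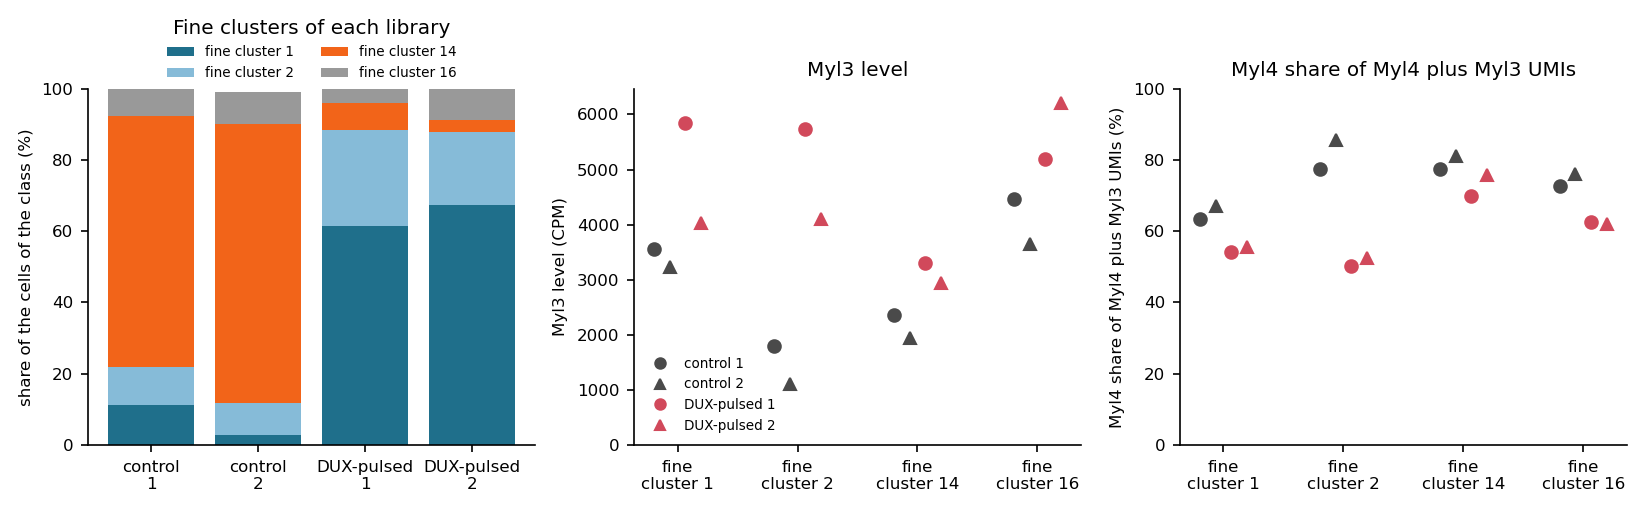
Left, share of the class cells of each library in the 4 main fine clusters. Middle and right, Myl3 CPM and the Myl4 share of Myl4 plus Myl3 UMIs in each fine cluster, one point per library: fine cluster 14 holds most control cells and fine cluster 1 most DUX-pulsed cells, and the Myl3 points of the DUX-pulsed libraries lie above the control points in each fine cluster.

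Atrial and ventricular isoforms were compared as shares of the UMIs of a pair. A UMI tags 1 molecule whatever its length, and the shares are read between libraries only, because capture can differ between genes. The exact permutation test over 2 against 2 libraries cannot give a p below 0.333. Wilson 95% intervals cover counting error only.

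The essential light chains differed most. Myl4 supplied 76.9% (95% interval 76.5 to 77.4%) and 81.2% (80.7 to 81.7%) of Myl4 plus Myl3 UMIs in the control class cells. In the DUX-pulsed class cells it supplied 54.1% (53.8 to 54.3%) and 56.0% (55.6 to 56.4%). The means were 79.1% ± 3.04 (SD, n = 2) and 55.0% ± 1.38 (SD, n = 2). The difference of -24.0 percentage points was several times the spread within either group, at the smallest exact permutation p the design allows (two-sided p = 0.333, 0.5 after Benjamini-Hochberg adjustment over 3 shares). This share rests on the same Myl3 counts as the test above.

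The share of Myl4 also varied between fine clusters. In fine cluster 14 it was 77.4% and 81.1% in the controls against 70.0% and 75.8% in the DUX-pulsed libraries. In fine cluster 1 it was 63.5% and 67.0% against 54.2% and 55.5%, and in fine cluster 2 it was 77.4% and 85.6% against 50.2% and 52.5%. DUX-pulsed cells thus had the lower share in each of the 3 clusters, but the control values of fine cluster 1 rest on 16 and 3 cells.

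For the heavy chains, Myh6 supplied 19.4% (18.9 to 19.9%) and 20.6% (19.9 to 21.2%) of Myh6 plus Myh7 UMIs in the control class cells and 27.1% (26.8 to 27.5%) and 25.3% (25.0 to 25.7%) in the DUX-pulsed ones. The groups did not overlap, with a difference of 6.23 percentage points (two-sided exact permutation p = 0.333, adjusted 0.5). As a mean of the shares of single cells the difference was 3.55 percentage points and smaller than the SD of the controls (4.94; two-sided exact permutation p = 0.667). For the regulatory light chains, Myl7 supplied 90.1% (89.7 to 90.4%) and 94.0% (93.7 to 94.3%) of Myl7 plus Myl2 UMIs in the controls and 86.9% (86.7 to 87.1%) and 92.3% (92.1 to 92.4%) in the DUX-pulsed libraries. These groups overlapped, with a difference of -2.44 percentage points that was smaller than the SD in either group (2.79 and 3.81; two-sided exact permutation p = 0.667). Of the 3 pairs, only that of Myl4 and Myl3 gave a difference beyond the spread of the libraries both by summed UMIs and by single cells (-26.8 percentage points by single cells, with SDs of 2.40 in the controls and 0.544 in the DUX-pulsed libraries; two-sided exact permutation p = 0.333, the smallest that this design allows).

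In single cells, both heavy chains and both essential light chains were found together in most class cells of each library. For the regulatory light chains this held in the DUX-pulsed libraries but not in the thinned control cells. To compare cells of unequal depth, each was thinned to 5000 UMIs, which left 119, 96, 391 and 256 class cells and set aside 23, 6, 19 and 25 (control 1 and 2, DUX-pulsed 1 and 2). Myl4 and Myl7 had a UMI in 100% of these cells in all 4 libraries. UMIs of both Myl4 and Myl3 were present in 74.0% and 64.6% of the control cells and 95.1% and 95.3% of the DUX-pulsed cells. Before thinning, these values were 82.4% and 77.1% against 97.95% and 98.4%.

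UMIs of both Myl7 and Myl2 were present in 43.7% and 36.5% of the thinned control cells and in 71.1% and 68.0% of the DUX-pulsed cells. Before thinning, these were 54.6% and 49.0% against 79.3% and 78.9%. After thinning, most control cells had Myl7 and no Myl2 (56.3% and 63.5%). Unlike the summed level of Myl2, the share of cells with both did not overlap between the groups. The share of all genes with that property was not computed. Fine cluster 14 went the other way before thinning, with Myl2 in 53.0% and 52.5% of control cells against 26.7% and 44.4% of DUX-pulsed cells. Its Myl2 levels were 1095 and 625 CPM against 321 and 275 CPM. In fine clusters 1, 2 and 16 both DUX-pulsed shares of cells with Myl2 were above both control shares. Over the class, UMIs of both Myh6 and Myh7 were present in 86.6% and 80.2% of the thinned control cells against 93.6% and 97.7%, before thinning 95.8% and 92.7% against 98.98% and 99.2%. Cells with Myh6 and no Myh7 made up 0.391% to 5.21% of cells across the libraries. Each of the 3 shares of cells with both isoforms had the smallest exact permutation p possible (two-sided p = 0.333, 0.333 after Benjamini-Hochberg adjustment). Because Myl4 and Myl7 had a UMI in every thinned cell, the shares of their pairs equal the detection of Myl3 and of Myl2. They hold no further information on expression of both isoforms together.

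Detection in classes outside the cardiac one, which can hold free RNA from cardiac cells, was set beside these values. The part of free RNA in it was not tested. In endothelium-like cells, with a median of 26137 UMIs, a UMI after thinning was present for Myl2 in 0% of 149 cells, for Myh6 in 1.34%, for Myh7 in 2.01%, for Myl3 and Myl4 in 2.68% each and for Myl7 in 5.37%. Over 14 classes or unnamed clusters outside the cardiac class (trophoblast-like and low-depth cells were not among them), Myl2 was present in at most 1.85% of thinned cells. Myl3 was present in at most 7.61%, except in cluster 3, where it was present in 45.7% of 317 cells at a median of 50125 UMIs.

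**Figure D4:**
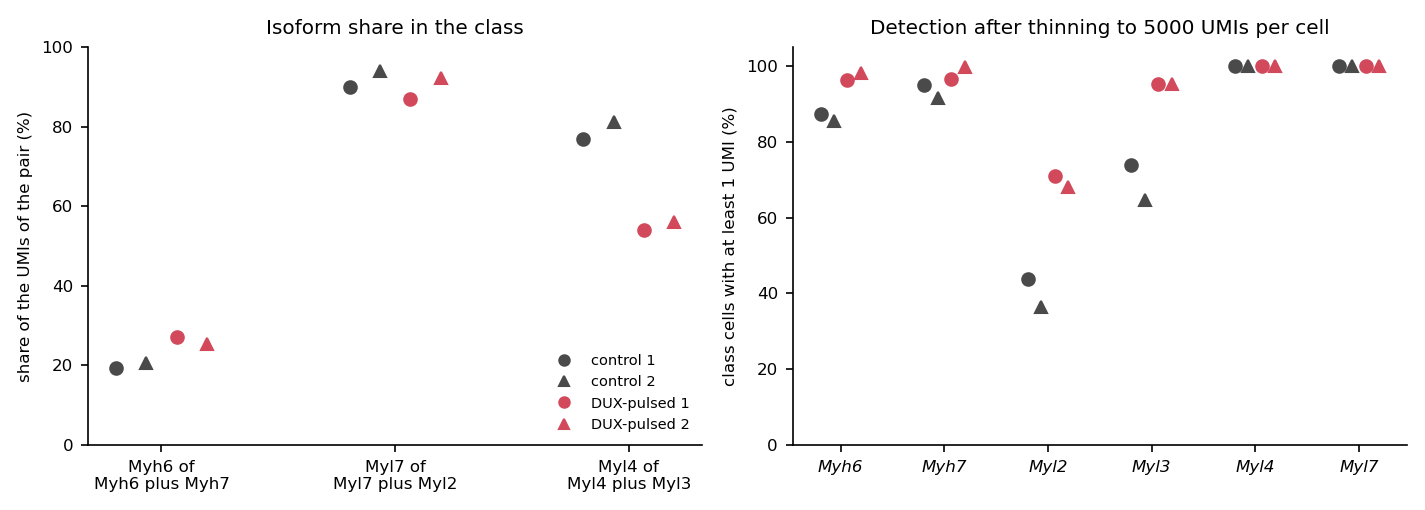
Left, share of the first gene in the UMIs of each isoform pair in the cardiomyocyte-like class, one point per library. Right, percent of class cells with at least 1 UMI of each gene after thinning to 5000 UMIs: the Myl2 points lie at 43.7% and 36.5% in the controls against 71.1% and 68.0% in the DUX-pulsed libraries.

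Outside the cardiomyocyte-like class, levels were low and 3 members were higher in DUX-pulsed cells, where 13.6% of 15943 genes were called higher. Myl2 stood at 0.337 and 0.290 CPM in the controls against 4.15 and 1.66 CPM in the DUX-pulsed libraries (log2 fold change 3.22, SE 0.52, edgeR adjusted p = 0.0112). In DUX-pulsed replicate 1, 153 of the 221 Myl2 UMIs outside the class came from the 13 Myl2-positive cells of cluster 4. Without that library the estimate was 2.42 (edgeR adjusted p = 0.00517), and with the members kept in the clustering it was 2.34 (edgeR adjusted p = 0.00817). Myl4 stood at 9.81 and 6.89 CPM against 29.4 and 20.7 CPM (1.58, SE 0.26, edgeR adjusted p = 0.0119), a call that was lost with the stricter cell filter (0.91, edgeR adjusted p = 0.0753). In mesenchyme- and fibroblast-like cells, with 2063 Myl4 UMIs, its level was lower in the DUX-pulsed libraries (66.0 and 38.9 CPM against 75.8 and 102 CPM). In cluster 4 it was higher (27.0 and 6.46 CPM against 0.807 and 5.20 CPM). Over all cells outside the class, Myh7 stood at 18.0 and 23.1 CPM against 32.2 and 38.4 CPM (0.78, SE 0.18, edgeR adjusted p = 0.0327). The Myh7 call was lost without control replicate 1 (0.63, edgeR adjusted p = 0.157) and without DUX-pulsed replicate 2 (0.65, edgeR adjusted p = 0.0589).

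Whether the difference was the same inside and outside the class was tested as well: 17.3% of 16110 genes were called in either direction, and 4 of the 6 members were among them (Myl2, Myl4, Myh6 and Myl7).

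The remaining members did not pass outside the class. Myl3 stood at 14.2 and 9.90 CPM in the controls against 57.3 and 15.1 CPM (1.60, edgeR adjusted p = 0.108). DUX-pulsed replicate 1 was far above the rest. That library held 249 of the 339 cells of cluster 3. Myl3 passed without control replicate 1 (1.90, edgeR adjusted p = 0.0468) and without DUX-pulsed replicate 2 (2.26, edgeR adjusted p = 0.000723), and fell to 0.35 without DUX-pulsed replicate 1 (edgeR adjusted p = 0.369). Myh6 stood at 7.57 and 8.51 CPM against 6.23 and 4.64 CPM (-0.56, edgeR adjusted p = 0.135). Myh6 passed as lower with the stricter cell filter (-0.94, edgeR adjusted p = 0.0455), without the top doublet scores (-0.93, edgeR adjusted p = 0.0265) and with the members kept in the clustering (-0.73, edgeR adjusted p = 0.0488). Myl7 stood at 32.8 and 30.1 CPM against 31.8 and 31.5 CPM (0.01, edgeR adjusted p = 0.970). The cells outside the class differed in kind between the groups: mesenchyme- and fibroblast-like cells numbered 203 and 123 in the controls against 455 and 329 in the DUX-pulsed libraries. The cardiac class was also larger in the DUX-pulsed libraries, and the part of its free RNA in these levels was not tested.

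Among 9 gene lists set beside the members in the class, the sarcomere as a whole did not move 1 way. Of the thick filament and myosin partners, 2 of 12 tested were higher and 3 lower, with a median log2 fold change of -0.12 against 0.00 over all genes. Mybpc1, the slow skeletal myosin binding protein C, fell from 29.2 and 34.1 CPM to 5.87 and 6.17 CPM (-2.39, edgeR adjusted p = 3.37e-05). Myl9, a regulatory light chain of smooth muscle, fell from 1138 and 1212 CPM to 629 and 547 CPM (edgeR adjusted p = 0.00378). Myom2, an M-band protein, had 0 and 1 UMIs in the controls against 18 and 29 in the DUX-pulsed libraries. That is a ratio of 15.1 (95% counting interval 2.58 to 609, edgeR adjusted p = 0.0153), and the call was lost without control replicate 1 (edgeR adjusted p = 0.0644).

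Of the thin filament list, 1 of 13 tested was higher and 2 lower (median -0.05). Tnni3, the adult cardiac troponin I, rose from 239 and 280 CPM to 1126 and 711 CPM (1.82, edgeR adjusted p = 0.00023). Lmod2, a leiomodin that lengthens thin filaments, fell from 86.8 and 86.4 CPM to 32.3 and 14.8 CPM (-1.87, edgeR adjusted p = 0.000533), and Tnnt1, the slow skeletal troponin T, fell by 0.80 on the log2 scale (edgeR adjusted p = 0.0441). The Tnnt1 call was lost without control replicate 1 (-0.35, edgeR adjusted p = 0.550) and without DUX-pulsed replicate 2 (-0.58, edgeR adjusted p = 0.178). Of the Z disc and intermediate filament list, 1 of 14 was higher and 4 lower (median -0.44). Actn2, the sarcomeric alpha-actinin, rose (0.95, edgeR adjusted p = 0.00555). Ankrd1, a stretch-responsive titin partner, fell from 1178 and 1257 CPM to 507 and 502 CPM (-1.27, edgeR adjusted p = 0.000667), and Pdlim3 fell (-1.07, edgeR adjusted p = 0.00709). Without control replicate 2 the calls of Actn2 (0.82, edgeR adjusted p = 0.0617) and Pdlim3 (-0.72, edgeR adjusted p = 0.118) were lost.

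Of the nonmuscle and smooth muscle myosins, 0 of 10 tested were higher and 5 lower (median -0.65, the same with Myh11 at its bound). Myh11 had 301 UMIs in the control class cells, at 33.6 and 72.7 CPM, and 0 in both DUX-pulsed libraries. Against the limit of 3 counts over the group, it was at least 312-fold lower (edgeR adjusted p = 1.77e-06). Myh10, a nonmuscle heavy chain, fell from 411 and 440 CPM to 164 and 176 CPM (-1.33, edgeR adjusted p = 0.000493). Of the other sarcomeric myosins 1 of 3 tested was higher: Myl1, the fast skeletal essential light chain, stood at 0.641 and 0.742 CPM against 6.52 and 5.91 CPM (3.14, edgeR adjusted p = 0.00136), a call lost with the stricter cell filter (1.88, edgeR adjusted p = 0.0728).

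The lists of chamber-associated genes were mixed. Of the atrial-associated genes, 4 of 13 tested were higher and 1 lower (median 0.10). Nppa, the atrial natriuretic peptide gene, stood at 14.1 and 10.8 CPM against 22.9 and 106 CPM (2.36, edgeR adjusted p = 0.00723), with DUX-pulsed replicate 2 far above the rest. Kcnj3, an atrial potassium channel, had 1 and 0 UMIs against 39 and 22, a ratio of 19.6 (95% counting interval 3.39 to 787, edgeR adjusted p = 0.00507). Nr2f1, an atrial nuclear receptor, fell (-1.37, edgeR adjusted p = 0.0234), a call lost without control replicate 2 (-0.67, edgeR adjusted p = 0.359).

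Of the ventricular-associated genes, 4 of 15 were higher and 3 lower (median 0.28). Irx4, a ventricular homeobox gene, rose from 2.56 and 1.48 CPM to 21.96 and 19.2 CPM (3.31, edgeR adjusted p = 4.78e-05). Irx1 had 0 and 1 UMIs against 31 and 23, a ratio of 17.4 (95% counting interval 2.99 to 698, edgeR adjusted p = 0.00641). Hand2 (-1.13, edgeR adjusted p = 0.00181) and Hand1 (-0.99, edgeR adjusted p = 0.00408), factors of the right and left ventricle, fell.

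Of the cardiac transcription factors, 1 of 18 tested was higher and 2 lower (median -0.08). The gene that rose was Hopx, a homeodomain cofactor of heart development, from 6.09 and 10.4 CPM to 44.9 and 49.5 CPM (2.53, edgeR adjusted p = 4.57e-05). The 2 that fell were Hand1 and Hand2. Among thyroid hormone receptors, Pur proteins and stress genes, known regulators and companions of the heavy chain switch, 2 of 10 were higher and 2 lower (median -0.08). Thra, the thyroid hormone receptor alpha, rose from 58.3 and 53.8 CPM to 103 and 99.8 CPM (0.86, edgeR adjusted p = 0.00906), and the immediate early gene Egr1 fell (-1.004, edgeR adjusted p = 0.011). Both calls were lost without control replicate 2 (Thra 0.79, edgeR adjusted p = 0.107; Egr1 -0.84, edgeR adjusted p = 0.0508), and that of Egr1 also without DUX-pulsed replicate 1 (-0.67, edgeR adjusted p = 0.0899).

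The genes whose levels were most like each member were found by Pearson's r of log2(CPM + 1) over 50 sums per class and library, among 12792 genes. The sums share libraries and classes, so r is a description. Myl4 (r = 0.952) and Myl7 (r = 0.934) were both most like Actc1, the cardiac actin. Myl2 was most like Lrrc10 (r = 0.9498), a heart-restricted leucine-rich repeat gene, followed by Actn2 (r = 0.945) and Tnni3 (r = 0.938). Myh6 (r = 0.878) and Myh7 (r = 0.899) were both most like Mhrt. Because Mhrt overlaps Myh7 on the other strand, its counts cannot be told apart from those of Myh7 without the strand setting.

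Myl3 had no partner as close: its highest values were with Mitf (r = 0.822), Atp5d (r = 0.817) and Tnni3 (r = 0.815). Next came, for Myh6, Lrrc10 (r = 0.866) and Trdn (r = 0.864), for Myh7, Synpo2l (r = 0.897) and Atcayos (r = 0.879), for Myl4, Jph2 (r = 0.932) and Csrp3 (r = 0.918), and for Myl7, Trim55 (r = 0.914) and Cox6a2 (r = 0.909). Between members, r was highest for Myl4 with Myl7 (0.904) and for Myh6 with Myh7 (0.895), and lowest for Myl3 with Myl4 (0.659).

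The genes around each member did not share its rise in the whole culture. Within 5 Mb of Myl3, 142 genes were tested, with a median log2 fold change of -0.10 (13 higher and 11 lower). For Myl4 the 171 neighbours had a median of 0.01 (28 higher and 17 lower). Myh6 and Myh7 each had 123 neighbours with a median of -0.07 (10 higher and 15 lower). The 81 neighbours of Myl7 had a median of -0.11 (4 higher and 9 lower). The 129 neighbours of Myl2 had a median of -0.50, with 42 lower and 4 higher, while Myl2 itself had 3.09. Of all 16140 genes tested, 2522 were called higher and 1784 lower. In the cardiac class the 96 neighbours of Myl2 had a median of -0.47, with 23 lower and 1 higher, where 7.59% of all genes were called lower and 8.57% higher. The median over all genes was 0.00 in both comparisons.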

How the data were processed

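Day 9 embryoid bodies were measured in 4 droplet libraries (10x Genomics). The deposited table holds UMI counts per gene and cell with no normalization, as its whole-number values show. The submitters' processing notes list Cell Ranger 2.2.0, STAR and mm10 without saying what each was used for. A filter before deposit was not given in the sources used here; no deposited cell had fewer than 501 genes or more than 19.98% mitochondrial counts. Libraries were read from the start and end of column names.

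A cell was kept if it had 500 genes or more and no more than 10% mitochondrial counts (8876 of 10090). The libraries totalled 96344329 and 78167098 UMIs (control) and 65062824 and 36462169 UMIs (DUX-pulsed). Scrublet called 27 doublets (0.304%) and was taken not to have worked, so doublets were kept, and removing the top 5% of scores was an alternative. Cells were clustered with scanpy 1.11.5 (2000 variable genes, 30 components, 15 neighbours, Leiden resolution 1). A cluster took a list's name with at least 4 of its markers among its top 30 genes, at least 3 and 50% of the markers raised 2-fold, and no other list ahead in its top 10 genes.

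UMIs were summed by library, and edgeR 4.0.16 tested the sums (quasi-likelihood, TMM, two-sided, Benjamini-Hochberg over all genes tested, threshold 0.05), for genes that reached 10 counts in 2 or more libraries and 40 in all. On simulated counts with the sizes of the class comparison (11305 genes), 41% of 2-fold and 94% of 4-fold changes were recovered, and in the whole culture (16140 genes) 41% and 98%. CPM in comparisons use TMM-scaled totals, and CPM by class or fine cluster use plain totals. Named were the members, the 2 genes of each list with the smallest p in the class in each direction, and the 3 genes most like each member. A gene that this rule named is not reported here. The members and lists were chosen with earlier results of these data known. Gene positions come from GENCODE vM21, in which 20021 symbols matched and 263 did not.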

Additional observations from a re-analysis of the deposited data

Results flagged for a closer look

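The difference between DUX-pulsed and control libraries was tested for being equal inside and outside the cardiomyocyte-like class, with an interaction term over 8 sums and the library as a block. Of 16110 genes, 17.3% were called in either direction, and 4 members were among them. For Myl2 the log2 fold change was smaller in the class by 2.37 (interaction -2.37, edgeR adjusted p = 9.64e-06), at 0.74 in the class and 3.22 outside it. For Myl4 the interaction was -1.82 (edgeR adjusted p = 5.66e-07), with -0.32 in the class and 1.58 outside. For Myh6 it was 1.29 (edgeR adjusted p = 0.000153), with 0.63 in the class and -0.56 outside. For Myl7 it was 0.43 (edgeR adjusted p = 0.0162), with 0.33 in the class and 0.01 outside.

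The median interaction over all genes was 0.12. The Myl7 call was lost without control replicate 2 (0.29, edgeR adjusted p = 0.185), without DUX-pulsed replicate 1 (0.31, edgeR adjusted p = 0.121) and without TMM (0.27, edgeR adjusted p = 0.0769). The calls of Myl2, Myl4 and Myh6 were kept in each of 6 alternatives. Myl3, the member called in the class, had an interaction of 0.02 (edgeR adjusted p = 1), which became 0.73 without DUX-pulsed replicate 1 (edgeR adjusted p = 0.00111) and -0.62 without DUX-pulsed replicate 2 (edgeR adjusted p = 1.12e-05). Myh7 had -0.55 (edgeR adjusted p = 0.0953), and passed without control replicate 2 (-1.02, edgeR adjusted p = 0.000842).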

How the results depend on the processing

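Of 311 alternative estimates for the members, 256 kept direction and side of the threshold, 30 passed it newly, 11 lost it and 14 changed sign. Isoform shares and shares of cells with both isoforms had 54 alternatives together, of which 52 kept their direction. The 2 that did not were isoform shares of Myl7 in Myl7 plus Myl2. Precision is limited by 2 libraries per group, by 102 class cells in control replicate 2 and by low counts of Myl2 outside the class, where it could not be tested after thinning.

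Counts of called genes were 2522 higher and 1784 lower in the whole culture, 969 and 858 in the class, 2171 and 1518 outside it, 883 and 794 in cluster 1 and 1404 and 1387 for the interaction. The stricter cell filter gave 1148 and 894, 604 and 547, and 1138 and 872 for the first 3. DESeq2 called 590 higher in the class, thinning 435 higher and 418 lower there, and no TMM 820 higher for the interaction. Without single replicates, counts ranged from 1380 to 2814 higher and 754 to 2158 lower in the whole culture, 579 to 775 and 531 to 778 in the class, 1386 to 2307 and 738 to 1634 outside it, 442 to 713 and 378 to 716 in cluster 1, and 540 to 1213 and 755 to 1280 for the interaction. The lowest came without control replicate 2, except in cluster 1, where they came without DUX-pulsed replicate 2. Control replicate 1 also mattered: without it 881 genes were lower in the whole culture and 772 outside the class, and 768 were higher for the interaction. A group left with 1 library was assumed to vary like the other. With DESeq2 the class calls of Myom2, Kcnj3, Nppa and Irx1 were lost (DESeq2 adjusted p from 0.0628 to 0.129).

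Replicate numbers are shared by the groups, but 2 pairs do not show that they pair the libraries; deviations of same-numbered libraries correlated at 0.35 in the whole culture, 0.278 in the class and 0.329 outside it. With a replicate block, 3803 genes were higher and 3381 lower in the whole culture, 1928 and 1958 in the class, 2782 lower outside it, and 1767 and 1734 in cluster 1. In that fit Myh6 (0.64), Myl2 (0.76), Myl7 (0.34) and Myl4 (-0.34) also passed in the class. In cluster 1 the block added Myh6 (0.60), Myl2 (0.61) and Myl7 (0.41), and outside the class Myl3 (1.35).

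In the class Myh6 also passed with DESeq2 (DESeq2 adjusted p = 0.0484), after thinning (0.0361), without TMM (0.0359) and without the low-count filter (0.0135), and Myl2 after thinning (0.0467) and without that filter (0.00336). Signs changed for values near 0. In the class these were Myh7 without control replicate 2 (-0.16; up to 0.43 without single replicates) and with the stricter filter (-0.031), Mhrt without control replicate 2 (-0.039; up to 0.90 without single replicates), Synpo2l without DUX-pulsed replicate 1 (0.087; down to -0.37) and Jph2 after thinning (0.077), and in cluster 1 Myh7 without control replicate 2 (-0.11; up to 0.51). Outside the class Myl7 became -0.038 without TMM, -0.060 without control replicate 2 (up to 0.090 without single replicates), -0.0024 without the low-count filter, -0.067 after thinning, -0.24 without the top doublet scores, -0.0054 and -0.018 at Leiden resolutions 0.5 and 2, -0.29 with the members kept in the clustering and -0.73 with the stricter filter, where it passed as lower (edgeR adjusted p = 0.0286). The Myl3 interaction became -0.14 without TMM and -0.62 without DUX-pulsed replicate 2 (up to 0.73 without single replicates). The Myl7 share difference became 1.24 percentage points with the stricter filter and 0.25 without DUX-pulsed replicate 1 (down to -5.14 without single replicates). The cause of these changes was not tested.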
